A study of Sus scrofa with 6 samples.

Results

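The insulin-like growth factor family was examined as a set of listed genes: the ligands IGF1 and IGF2, the receptors IGF1R and IGF2R, and the binding proteins IGFBP2 to IGFBP7. Members were taken by gene name, and 7 of the 10 listed names had a row among the 28965 genes of each library. These were IGF1, IGF1R, IGF2R, IGFBP2, IGFBP4, IGFBP5 and IGFBP7; IGF2 and IGFBP3 had no row under their name and were not analysed here. IGFBP6 had no row under its name either, but a row listed only by its Ensembl ID, ENSSSCG00000000261, carries that symbol in a separate name table. It is given beside the 7 members and is not counted among them.

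The family works as a ligand system with carriers. IGF1 and IGF2 are small secreted peptides that signal through IGF1R, a receptor tyrosine kinase coupled to the PI3K-AKT-mTOR and MAP kinase pathways. IGF2R is the cation-independent mannose 6-phosphate receptor, which takes IGF2 up for breakdown in lysosomes and sorts lysosomal enzymes. The binding proteins are secreted, hold the ligands outside the cell and are cut by proteases that release them; IGFBP7 binds the ligands weakly. In the rodent nervous system, the leptomeninges, vessels and glia are known sources of several binding proteins, and microglia are a source of IGF1.

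The tissue was the cervical spinal cord of male pigs at 140 days of age. In the group called maternal deletion, 3 animals had inherited a UBE3A deletion from the mother, and the other group held 3 wild-type animals, with 1 poly(A) RNA library per animal. UBE3A is an E3 ubiquitin ligase that neurons express mainly from the maternal allele, while other cells are known to use both. Cells outside the neuronal lineage can thus still express the paternal copy. The segment within the cervical cord and the dissection of its coverings and roots are not stated in the labels.

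Libraries held between 17181003 and 22492366 exon reads. UBE3A lay between 57.0 and 65.5 CPM (exon reads scaled to library size with TMM factors) in wild type and between 21.4 and 27.1 CPM in the deletion group, so every library carried the level of its label. Wild-type replicate 3 stood apart in make-up: the 13 mitochondrial mRNAs took 5.88% of its reads against 9.01 to 12.4% in the other 5 libraries, and its summed neuron markers were the lowest of all. Markers of central nervous tissue were present, with summed levels of at least 20231 CPM for astrocytes, 15824 CPM for oligodendrocytes and 1159 CPM for neurons in every library; these lists do not tell spinal cord from brain, and the sample titles name both. Genes were tested with edgeR's quasi-likelihood test, and an adjusted p under 0.05 over all 14566 tested genes counts as past the threshold. Of all tested genes, 0.844% passed as lower and 0.178% as higher in the deletion group, 1.02% in all.

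In the deletion cords the binding proteins had lower means than in wild type, and the receptors were near the wild-type level. IGFBP2 fell to 15.6% of wild type, with a 95% interval of 8.28 to 29.2%, and was the only one of the 6 tested members to pass the threshold. IGFBP4, IGFBP5 and IGFBP7 stood at 37.2, 41.3 and 53.0% of wild type without passing, and IGF1R and IGF2R at 89.5 and 96.6%. No member rose; none of the 6 had an unadjusted p under 0.05 in that direction, and DESeq2 and limma voom called none higher either. The median log2 fold change of the 6 tested members was -1.10, beside 0.05 over all tested genes.

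**Figure D1:**
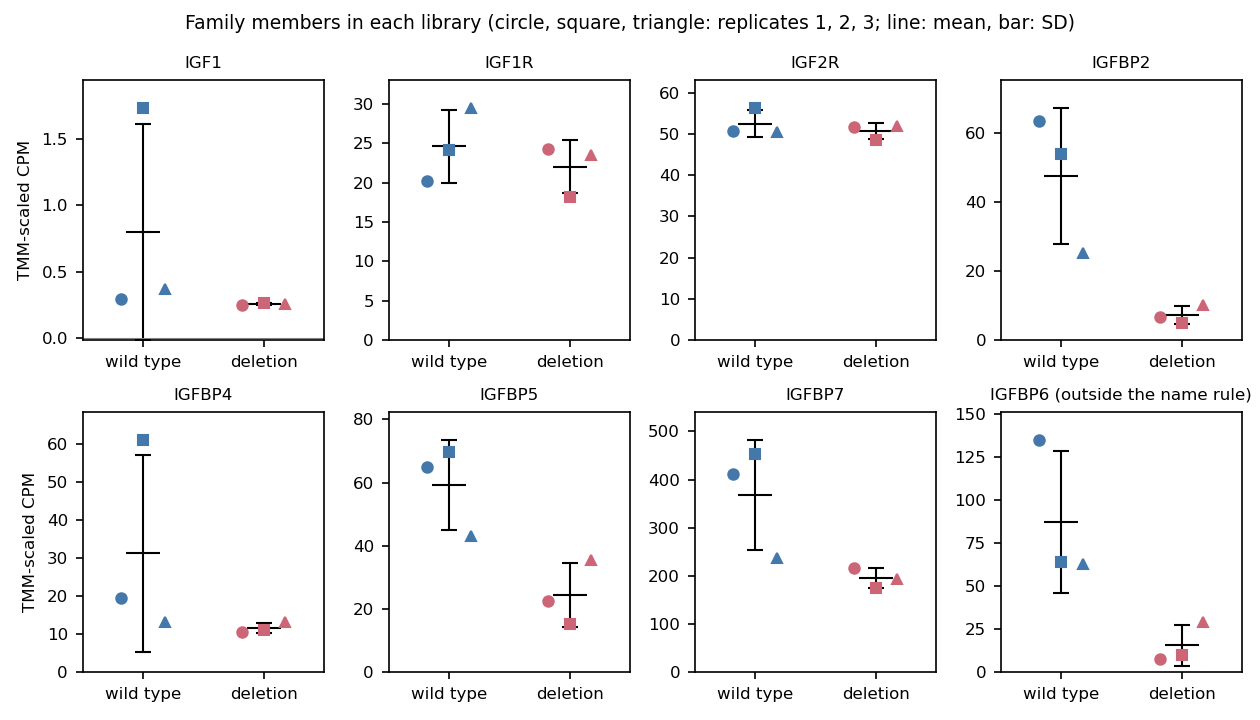
TMM-scaled CPM of each family member in the 6 libraries, with wild type in blue and maternal deletion in red; each panel has its own axis, the horizontal line is the group mean and the bar the SD (n = 3). IGFBP2 lies between 25.3 and 63.2 CPM in wild type and between 5.09 and 10.2 CPM in the deletion group, while the IGF1R and IGF2R groups overlap.

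Of the ligands, IGF1 was barely detected. Its counts in wild-type animals 1 to 3 were 5, 40 and 8 reads and in deletion animals 1 to 3 they were 5, 5 and 6, or 0.293, 1.74 and 0.367 CPM against 0.250, 0.262 and 0.259 CPM. Wild-type replicate 2 alone was high, and the other 5 libraries had between 5 and 8 reads each; the groups did not overlap in CPM, by a margin under the worth of 1 read. A count of 3 reads, taken as the detection floor, corresponds to between 0.133 and 0.175 CPM. The gene did not pass the filter on low counts, and with no filter its log2 fold change was -1.62 (SE 0.73, adjusted p 0.32 by edgeR). The higher wild-type mean therefore rested on 1 library, and no difference in IGF1 RNA between the groups was shown.

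Both receptors were measured with more reads and showed little difference. For IGF1R, wild-type animals 1 to 3 had 20.2, 24.1 and 29.5 CPM, and deletion animals 1 to 3 had 24.3, 18.2 and 23.6 CPM. The groups overlapped, with the highest library in wild type and the lowest in the deletion group. By edgeR the log2 fold change was -0.16 (SE 0.18, adjusted p 0.70), and the 95% interval of the deletion level ran from 67.1 to 119% of wild type.

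IGF2R, the lysosomal sorting receptor, had the smallest standard error of the tested members. Wild-type animals 1 to 3 had 50.7, 56.3 and 50.5 CPM, and deletion animals 1 to 3 had 51.7, 48.5 and 51.9 CPM. These ranges overlapped as well, and the interval of the deletion level, 81.8 to 114% of wild type, lies above the fitted level of each of the 4 binding protein members (log2 fold change -0.05, SE 0.10, adjusted p 0.848 by edgeR). The ratio of IGF2R to IGF1R, on the authors' length-scaled TPM, was 1.54 ± 0.297 in wild type and 1.64 ± 0.206 in the deletion group (SD, n = 3 each; exact two-sided permutation p = 0.7).

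Among the binding proteins, IGFBP2, a carrier known from fetal tissue and from cerebrospinal fluid, had the largest fold change of the members. Wild-type animals 1 to 3 had 63.2, 53.8 and 25.3 CPM, and deletion animals 1 to 3 had 6.69, 5.09 and 10.2 CPM. The groups did not overlap, and the lowest wild-type library, replicate 3, was still above the highest deletion library, replicate 3. The means were 47.5 ± 19.7 and 7.34 ± 2.64 CPM (SD, n = 3 each), and edgeR gave a log2 fold change of -2.68 (SE 0.39, adjusted p 0.0434). The deletion level was 18.6% of wild type at most when any 1 library was left out, but the call was lost in 5 of these 6 fits. Leaving out wild-type replicate 1 or 2 took edgeR's adjusted p to 0.152 or 0.0744, in fits that called 0% and 0.0611% of all genes lower. Leaving out deletion replicate 1, 2 or 3 took it to 0.134, 0.208 or 0.0933, where 0.0337%, 0% and 0% of all genes were called lower, so that calls were lost across the whole table. It was 0.00496 without wild-type replicate 3, and 0.0552 with no filter on low counts, where 0.76% of all genes were called lower. In the 4 animals whose ID begins with 15, edgeR gave -2.43 on the log2 scale (adjusted p 0.447, 0% of all genes called lower), and -2.65 with the ID prefix as a block (adjusted p 0.0897, 0.0206% called lower); prefix 14 holds 1 animal of each genotype.

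IGFBP5, a matrix-bound carrier whose gene lies next to IGFBP2 in the RefSeq annotation of pig assembly Sscrofa11.1, was lower by a smaller factor. IGFBP5 measured 65.0, 69.7 and 43.2 CPM in wild-type animals 1 to 3, and deletion animals 1 to 3 had 22.7, 15.3 and 35.4 CPM. The groups did not overlap, with replicate 3 the lowest library in wild type and the highest in the deletion group. The edgeR log2 fold change was -1.28 (SE 0.31, adjusted p 0.0914). The neighbours therefore differed in size of change: the ratio of IGFBP2 to IGFBP5 in TPM was 4.11, 3.26 and 2.48 in wild-type animals 1 to 3 against 1.25, 1.41 and 1.22 in deletion animals 1 to 3. The ratio was lower in all 3 deletion libraries (exact two-sided permutation p = 0.1, the smallest that 3 against 3 allows); this pair was chosen after its values were seen.

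IGFBP7, also called angiomodulin and known from vessel walls, was the most abundant member. Its levels were 411, 454 and 238 CPM in wild-type animals 1 to 3, and deletion animals 1 to 3 had 216, 175 and 195 CPM. The groups did not overlap, but the deletion libraries lay close together and wild-type replicate 3 was nearer to them than to the other wild-type libraries. By edgeR the log2 fold change was -0.91 (SE 0.24, adjusted p 0.0993). Without wild-type replicate 3 it was -1.21 and past the threshold (adjusted p 0.00929 by edgeR), in a fit that called 4.31% of all genes lower.

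IGFBP4, the carrier that the protease PAPPA cuts, depended on 1 wild-type animal. Wild-type animals 1 to 3 had 19.7, 61.1 and 13.2 CPM, and deletion animals 1 to 3 had 10.5, 11.2 and 13.2 CPM. Wild-type replicate 2 was far above the rest, as it was for IGF1, and replicate 3 of both genotypes was at the same level. The order of that pair turned with total-count scaling, which put the wild-type library at 13.5 CPM and the deletion library at 13.6 CPM. The edgeR log2 fold change was -1.43 (SE 0.52, adjusted p 0.186), and it shrank to -0.51 without wild-type replicate 2 (adjusted p 0.33).

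IGFBP6, a carrier with a preference for IGF2 and known from fibroblasts, had a fold change near that of IGFBP2. Wild-type animals 1 to 3 had 135, 64.2 and 62.9 CPM, and deletion animals 1 to 3 had 7.59, 10.2 and 29.1 CPM. The groups did not overlap, with wild-type replicate 1 and deletion replicate 3 as the highest library of each. The log2 fold change was -2.47 (SE 0.55), at 18.0% of wild type, and it did not pass the threshold (adjusted p 0.0802 by edgeR). DESeq2 and limma voom called it lower (adjusted p 0.00546 and 0.0426). Its level was 9.90% of wild type without deletion replicate 3 and 29.8% in the animals of prefix 15 alone.

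**Figure D2:**
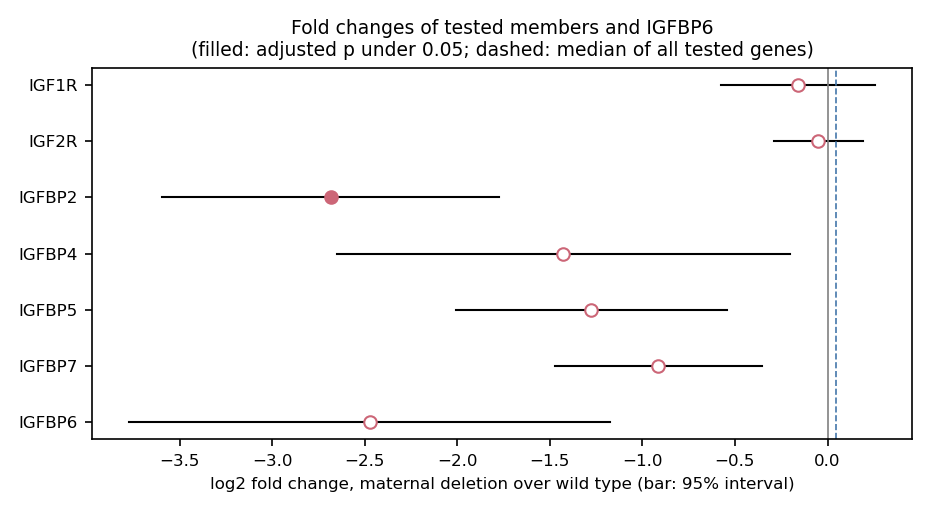
Log2 fold change of maternal deletion over wild type for the 6 tested members and IGFBP6, with 95% intervals; the filled point passed an adjusted p of 0.05, and the dashed line is the median of all tested genes, 0.05. The intervals of the receptors span 0, and those of the binding proteins lie below it.

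Separation of the groups was common in the whole table and has to be read against that. The groups did not overlap in 4 of the 6 tested members, all lower, where 11.2% of all tested genes were lower without overlap and 26.4% did not overlap in either direction. The count was 3 under total-count scaling and 5 under upper-quartile scaling, where it includes a receptor. The shares of all genes were taken under TMM scaling only. The other tools called more members. DESeq2 called IGFBP2, IGFBP4, IGFBP5 and IGFBP7 lower (adjusted p 9.96e-11, 0.0290, 0.00137 and 0.00350), beside 5.59% of all genes with an adjusted p, and limma voom with quality weights called IGFBP2 and IGFBP7 lower, beside 2.36% of all genes. In the authors' deposited table the same 4 binding proteins are listed 6.38-, 2.66-, 2.40- and 1.86-fold lower (IGFBP2, IGFBP4, IGFBP5 and IGFBP7), each with a false discovery rate under 0.05, as it gives for 7.2% of its genes with such a rate. It lists IGFBP6's row at 5.52-fold lower with a false discovery rate of 3.22e-09, IGF1 at 3.06-fold lower with a false discovery rate of 0.230, and both receptors at 1.11-fold lower or less, again in the authors' deposited table.

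Levels of different genes were compared on the authors' TPM, which corrects for transcript length. In wild type, IGFBP7 led with 181 ± 44.6 TPM, followed among the 7 members by IGFBP2 with 93.1 ± 30.6 and IGFBP5 with 28.0 ± 4.78 TPM, and the ranges of these 3 did not overlap. IGFBP6, outside the name rule, stood between IGFBP7 and IGFBP2 with 111 ± 40.0 TPM, and its range overlapped both. IGFBP4 with 21.4 ± 17.6, IGF2R with 16.8 ± 2.07 and IGF1R with 11.4 ± 3.52 TPM came next, each overlapping its neighbour in the order, and IGF1 was last with 0.415 ± 0.415 TPM (SD, n = 3). In the deletion group IGFBP7 still led with 93.2 ± 12.1 TPM, and IGFBP6 had 19.9 ± 15.9 TPM, with a range of 9.36 to 38.2 TPM. IGF2R with 15.5 ± 1.30, IGFBP2 with 14.4 ± 5.90 and IGFBP5 with 11.3 ± 5.29 TPM were the next members, with overlapping ranges, then IGF1R with 9.57 ± 1.79, IGFBP4 with 7.73 ± 1.29 and IGF1 with 0.128 ± 0.00712 TPM (SD, n = 3). IGFBP2 thus lay above both receptors in every wild-type library, while its range overlapped that of IGF2R in the deletion group.

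The pool of the 4 binding proteins matched by name also differed in make-up. The summed TPM of IGFBP2, IGFBP4, IGFBP5 and IGFBP7 was 337, 406 and 226 in wild-type animals 1 to 3 against 132, 103 and 145 in deletion animals 1 to 3. IGFBP2 made up 28.6 ± 4.52% of this sum in wild type and 11.1 ± 2.87% in the deletion group, and IGFBP7 56.3 ± 2.77% and 74.1 ± 5.70% (SD, n = 3 each; groups not overlapping, exact two-sided permutation p = 0.1 for each share). The shares of IGFBP4, 6.15 ± 3.61% and 6.16 ± 0.855%, and of IGFBP5, 8.89 ± 1.24% and 8.67 ± 2.75%, overlapped between the groups. All shares are parts of 1 sum, so the lower share of IGFBP2 and the higher share of IGFBP7 are not separate results. The level of IGFBP7 itself was lower in the deletion group, at 93.2 ± 12.1 TPM against 181 ± 44.6 TPM in wild type. With IGFBP6 added, the sum was 434 ± 99.2 TPM in wild type and 146 ± 34.7 TPM in the deletion group. The share of IGFBP2 was then 21.1 ± 2.59% and 9.54 ± 1.65%, that of IGFBP7 41.7 ± 4.38% and 65.0 ± 10.1%, and that of IGFBP6 25.9 ± 7.89% and 12.7 ± 7.35% (SD, n = 3 each); the groups overlapped for IGFBP6 but not for IGFBP2 or IGFBP7. These quantities were chosen after the values were seen. Relative to IGF1R, the summed binding protein level was 41.4, 37.6 and 15.0 times as high in wild-type animals 1 to 3 against 12.7, 13.7 and 13.5 times in deletion animals 1 to 3. Wild-type replicate 3 came close to the deletion libraries in this ratio.

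**Figure D3:**
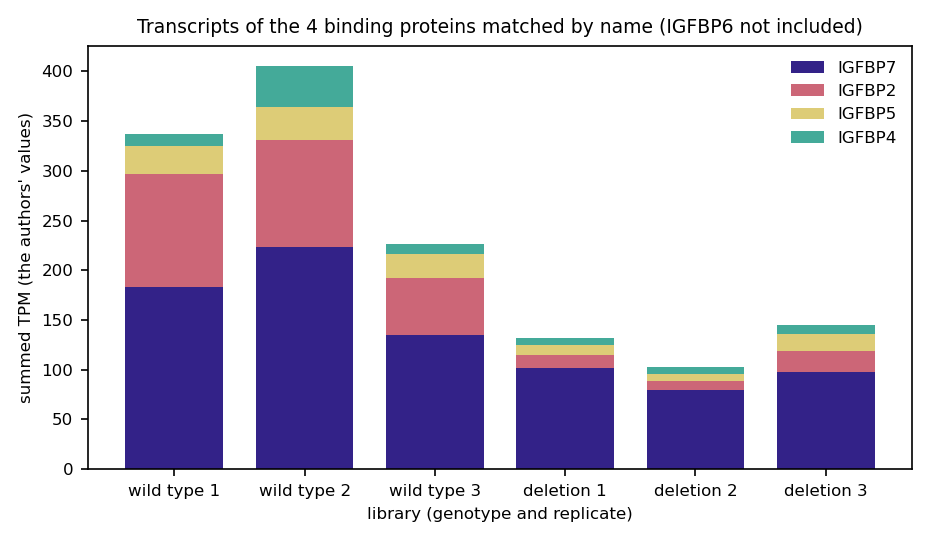
Stacked TPM of the 4 binding protein members in each library, from the authors' values and without IGFBP6. The sums lie between 226 and 406 in wild type and between 103 and 145 in the deletion group, and the IGFBP2 layer lies between 58.0 and 114 TPM in wild type and between 9.38 and 20.9 TPM in the deletion group.

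Other genes of the pathway showed few calls. Of the other IGF and insulin family list, 5 of 10 genes were tested and none passed: IGFALS, the acid-labile subunit that holds IGFs in serum complexes, stood at 3.14 ± 1.02 and 1.46 ± 0.261 CPM (log2 fold change -1.10), and the insulin receptor gene INSR, IGF2BP2 and IGF2BP3 gave -0.17, -0.16 and -0.53. IGFBP1 and INS had 0 reads in all 6 libraries. IGFBPL1, a gene of the wider family, varied within both groups, with 18.2, 21.1 and 1.51 CPM in wild-type animals 1 to 3 against 2.05, 1.73 and 27.8 CPM in deletion animals 1 to 3. The list's median log2 fold change was -0.36.

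Of the 10 genes for IGFBP proteases and stanniocalcins, all tested, 1 was lower and none higher past the threshold. ADAMTS1, a matrix protease, fell by 1.96 on the log2 scale (SE 0.29, adjusted p 0.0448 by edgeR), from 100.03 ± 39.0 to 25.8 ± 3.65 CPM. PAPPA2, which cuts IGFBP3 and IGFBP5, gave -1.18 (adjusted p 0.0785), the gelatinase MMP2 -0.70 (0.0734) and ADAM12 -0.80 (0.227), by the same test. PAPPA itself stood at 8.88 ± 5.69 and 13.5 ± 3.47 CPM in wild type and deletion, with overlapping groups. CTSD and HTRA1, the most abundant genes of the list, gave 0.18 and 0.22, also with overlapping groups. The list had 6 negative and 4 positive values and a median of -0.44. Its sum overlapped between the groups, at 1146 to 1333 CPM in wild type and 1099 to 1400 CPM in the deletion group.

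Signalling genes downstream of the receptors had a median near that of all genes. Of 25 tested genes for receptor adaptors and PI3K-AKT-mTOR, none passed the threshold in either direction by edgeR, and the median log2 fold change was 0.06. Without overlap of the groups, 7 of the 25 were higher and 2 lower, beside 15.2% and 11.2% of all tested genes. GSK3B, a kinase that AKT inhibits, gave 0.47 (SE 0.14), PIK3CB, a catalytic PI3K subunit, 0.58 (SE 0.19), and the transcription factors FOXO1 and FOXO3 -0.34 (SE 0.11) and -0.29 (SE 0.10), with adjusted p values between 0.117 and 0.178 by edgeR. In the growth hormone axis none of 5 tested genes passed, with a median of -0.14; CISH, a feedback inhibitor of STAT5, gave -0.82, the growth hormone receptor gene GHR -0.52, STAT5A 0.20 and STAT5B -0.14. The list for lysosomal sorting, IGF2R's second function, had none of 5 tested genes past the threshold and a median of 0.10. M6PR stood at 0.10, GNPTAB at 0.15, SORT1 at 0.21 and GNPTG at 0.06. Of 3 tested genes reported to act on IGF2 transcription, EGR1 fell by 2.48 (SE 0.33, adjusted p 0.0407 by edgeR), while PLAG1 and CTCF gave -0.33 and 0.01.

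Many markers of other cell types moved with the binding proteins. In the meninges and fibroblast matrix list, 7 of 12 tested genes were lower past the threshold and none higher, the median log2 fold change was -1.99, and the summed level was 2574 to 3318 CPM in wild type and 424 to 729 CPM in the deletion group; the log2 fold changes of the 7 were -2.70 for DCN, which encodes decorin, -2.35 for COL1A2, -3.24 for COL3A1, -2.83 for COL1A1, -1.21 for OGN, -2.50 for MGP and -2.37 for LUM. ALDH1A2 and FBLN1 gave -1.62 and -1.22 without overlap. SLC22A6, SLC6A13 and PDGFRA gave -0.74, -0.97 and 0.03 with overlapping groups. PDGFRA is also on the list of oligodendrocyte precursors. In the mural and smooth muscle list, 4 of 10 were lower (MYL9, ACTA2, TAGLN and MYH11), with values from -5.83 to -3.49. Of the rest, CNN1, PDGFRB, ABCC9 and KCNJ8 gave -4.08, -1.27, -0.79 and -0.39 without overlap. RGS5 and NOTCH3 gave -0.89 and -0.25 with overlapping groups. The median was -2.38, and the sum was 544 to 3010 CPM in wild type and 209 to 272 CPM in the deletion group. Wild-type replicate 2 had the highest sum of this list and replicate 3 the lowest in wild type. No marker of either list was at 0.

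The endothelial, border macrophage and Schwann cell lists had medians of -0.81, -2.69 and -1.42 with fewer calls. Of 9 tested endothelial genes none passed, with VWF at -0.98, CDH5 at -1.09, EMCN at -0.92 and TEK at -0.81, while KDR stood at 0.09, FLT1 at -0.27 and CLDN5 at -0.33 with overlapping groups, and the sum was 400.04 to 618 CPM in wild type against 272 to 375 CPM. Of 3 border macrophage genes LYVE1 fell by 2.97, with CD163 at -2.69 and MRC1 at -1.90, and the sum was 7.21 to 20.1 CPM against 1.85 to 4.23 CPM. Of 7 Schwann cell genes PRX fell by 5.46; EGR2, DRP2 and NCMAP gave -3.12, -1.19 and -0.82. The sum of that list, 64395 to 90937 CPM in wild type and 56936 to 91327 CPM in the deletion group, is nearly all MBP, which oligodendrocytes also make.

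Neuron markers had higher means in the deletion group, without a call. All 9 tested neuron genes and all 7 motor neuron genes had positive values, with medians of 1.37 and 2.71, and none passed the threshold, with sums of 1159 to 4718 against 6688 to 15240 CPM for neurons and 179 to 350 against 382 to 1260 CPM for motor neurons (wild type against deletion). GAP43, ELAVL4, THY1 and RBFOX3 gave 1.25, 1.41, 1.37 and 0.60, and ACHE, MNX1, SLC5A7 and CHAT gave 1.46, 3.05, 3.28 and 3.19. The lists of oligodendrocytes, their precursors, astrocytes, microglia, blood and ependyma had no gene past the threshold, with medians of 0.23, -0.02, 0.07, -0.06, -1.23 and -0.58. Their sums overlapped between the groups. In bulk tissue, fewer cells of a type and less RNA per cell cannot be told apart, and the part of tissue make-up in the binding protein values was not tested.

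**Figure D4:**
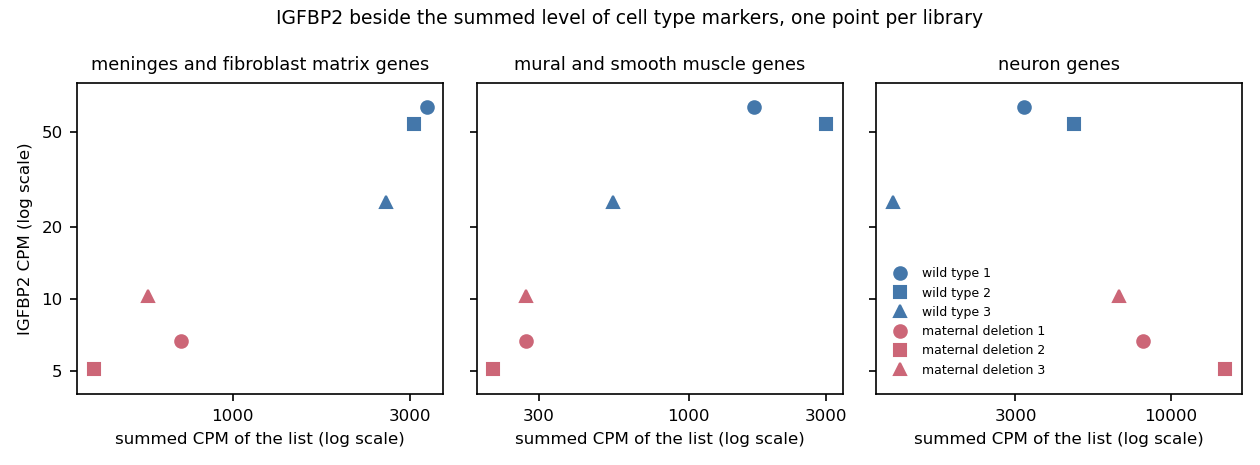
IGFBP2 CPM against the summed CPM of 3 marker lists in each library, on log axes, with genotype by colour and replicate by shape. The deletion libraries have both the lowest IGFBP2 and the lowest fibroblast and mural sums, and the highest neuron sums; within wild type, replicate 3 is lowest on all 4 measures.

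**Figure D5:**
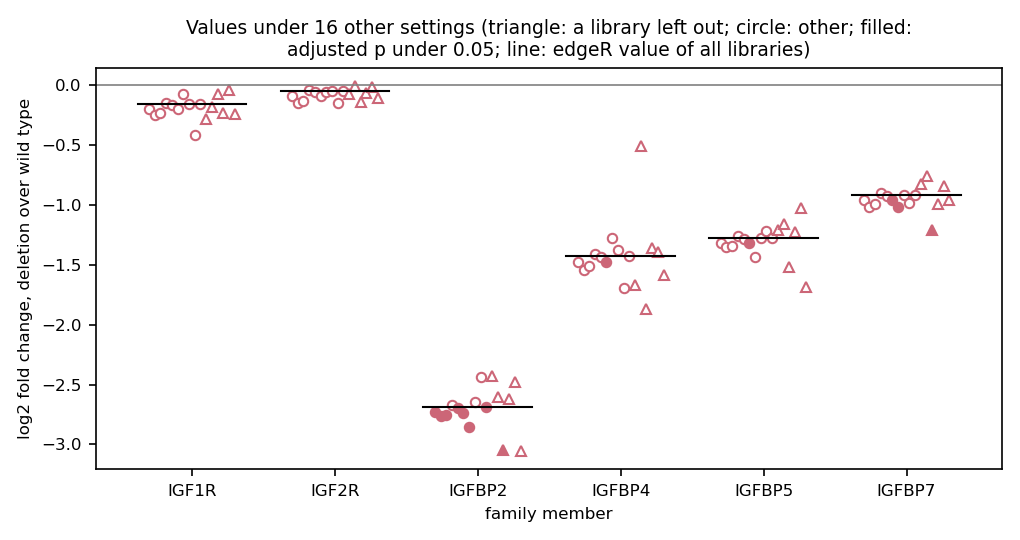
Log2 fold change of each tested member under the 16 other settings, with the edgeR value of all libraries as a line; filled points have an adjusted p under 0.05. IGFBP2 stays between -3.05 and -2.42, the receptors between -0.41 and -0.01, and IGFBP4 moves to -0.51 in the fit without wild-type replicate 2.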

How the data were processed

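RNA of 6 animals, 1 library each, was prepared with a stranded mRNA kit and sequenced as paired ends, per the labels' protocols. The aligner, counting program, annotation and build are unknown, being not given in the sources used here; use of strand in counting is not stated either, so antisense reads cannot be told apart. The authors deposited a count of exon reads for each gene, blank where there were no reads and read here as 0. They also deposited RPKM, not used here, TPM, used to compare genes, and a signal column headed CPM whose sums ranged from 917605 to 1075791. The authors' deposited table of the comparison holds a signed fold change (a score), its p-value and its false discovery rate; how they were computed is not stated.

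Counts were filtered with filterByExpr, which kept 14566 genes and 6 of the 7 members, scaled by TMM and fitted with edgeR 4.0.16 in R 4.3.3 (quasi-likelihood test, robust, Benjamini-Hochberg adjustment over all genes). DESeq2 1.42.0 and limma voom 3.58.1 were alternatives, and all 3 were tested on simulated data. Standard errors come from the quasi-likelihood F statistic. Permutation tests of ratios used log2 values. The floor of 3 reads covers counting error only. None of the 15 library pairs came within sampling noise (chi-square per degree of freedom at least 29.7). The labels name separate animals; replicate numbers were given in accession order. The files name 16246 genes, and a name table gave symbols to 777 more.

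The members and the lists were chosen with earlier results of these data known. Named genes are every member, UBE3A, and from each list those past the threshold or else up to 4 with the smallest p, of which the text omits some. PAPPA, IGFBPL1, KDR, FLT1, CLDN5 and, in lists with a gene past the threshold, further genes were chosen after their values were seen. For each member, the 3 named genes most like it over the 6 libraries were also taken.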

Additional observations from a re-analysis of the deposited data

How the results depend on the processing

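All 6 tested members kept a negative sign under the 16 other settings. By edgeR's quasi-likelihood test 1 member was lower; the count was 0 with no filter, with the ID prefix as a block and in prefix 15 alone (4, 4 and 2 members at an unadjusted p under 0.05; 0.76%, 0.0206% and 0% of all genes lower), 2 with voom and 4 with DESeq2. Leaving out each library in turn gave counts between 0 and 2, with 3 or 4 members at an unadjusted p under 0.05. Such p values, in either direction, were common in the whole table. They were held by 3194 of 21039 genes with no filter, 2793 of 14566 with the block and 1608 of 14690 in prefix 15 alone. With 1 library left out they were held by between 1888 of 14860 and 3666 of 14834 genes. The count of members called lower was 2, IGFBP2 and IGFBP7, without wild-type replicate 3. It was 0 in the 5 other such fits, which called at most 0.0611% of all genes lower. In the fit without wild-type replicate 3, IGFBP4 and IGFBP5 gave -1.87 and -1.52 (edgeR adjusted p 0.0766 and 0.0564). The count of members higher was 0 throughout. IGFBP2 passed under 8 of the 16 settings, with log2 fold changes from -3.05 to -2.42, IGFBP7 under 3, and IGFBP4 and IGFBP5 under DESeq2 only. Bias-adjusted deviances, added after the data were seen, changed no call. Scaling moved the median of all tested genes from 0.05 to between -0.04 and 0.01 on the log2 scale. No paired analysis was possible because the labels give no replicate numbers that the genotypes share. Low counts limit IGF1, which had 69 reads in all, 40 of them in wild-type replicate 2.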

Other observations

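The members differed in how closely they followed each other over the 6 libraries, given here as a description of log2 CPM in libraries that share their genotype groups. The Pearson correlation of IGFBP2 was 0.96 with IGFBP5, 0.93 with IGFBP7 and 0.74 with IGFBP4, and that of IGFBP4 with IGF2R was 0.84. IGF1R followed no member closely, with values from 0.06 to 0.37.

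The named genes most like IGFBP2 were ARNT, SLC5A6 and TRAM2, all at 0.996 or above; ARNT encodes a partner of hypoxia-inducible factors and of the aryl hydrocarbon receptor, SLC5A6 a vitamin transporter. Their log2 fold changes were -0.84, -0.35 and -1.20, all smaller than that of IGFBP2. The most like IGFBP5 were ITGBL1, DCLK3 and SEMA3F (0.994 to 0.989), the most like IGFBP7 were ISYNA1, RHOD and DDOST (0.998 to 0.997), and the most like IGFBP4 were RND3, S100A8 and AFAP1L1 (0.991 to 0.986), S100A8 being a protein of neutrophils and monocytes. For IGF1R they were ZNF546, ELMOD3 and PRXL2C (0.999 to 0.990), and for IGF2R ZNF792, ADAMTSL2 and TACC2 (0.996 to 0.991). These are the highest of all tested genes with a symbol, over 6 points only.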
